A study of Rattus norvegicus with 13 samples.

Results

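The unfolded protein response (UPR) regulators examined here were 10 genes taken by symbol from a fixed list, namely *Ern1*, *Eif2ak3*, *Atf6*, *Xbp1*, *Atf4*, *Ddit3*, *Creb3l1*, *Creb3l2*, *Herpud1* and *Sdf2l1*. All 10 were present among the 14790 genes measured, and each had 1 record. Expression was measured by RNA-seq in mammary epithelial cells of Wistar-Furth rats, an inbred strain susceptible to mammary cancer, with 1 library per rat and no treatment named in the labels. At 6 weeks of age (entering the window of susceptibility, WOS) there were 6 rats, and at 10 weeks (exiting WOS) there were 7. The cells came from collagenase-digested abdominal and inguinal glands without their lymph nodes, retained on a nylon filter as ductal fragments, which are mostly epithelial but still carry stromal fibroblasts and immune cells.

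The UPR adjusts the folding capacity of the endoplasmic reticulum (ER) to the load of secretory and membrane proteins. It is run by 3 sensors in the ER membrane. The sensor encoded by *Ern1* (IRE1 alpha) removes an intron from *Xbp1* mRNA so that an active transcription factor is made. The kinase encoded by *Eif2ak3* (PERK) phosphorylates the translation factor eIF2 alpha, which lowers general translation and favours that of *Atf4*, whose product in turn induces *Ddit3* (CHOP). The *Atf6* product is cut in the Golgi to release a transcription factor, as are its relatives encoded by *Creb3l1* (OASIS) and *Creb3l2*. *Herpud1* and *Sdf2l1* are targets that act in degradation and folding of ER proteins. In the mammary gland the pathway is known for its part in the secretory function of the epithelium.

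The best known DNA element of the pathway is the ER stress response element, bound by ATF6 with the factor NF-Y, and among the regulators it was found in the promoter of *Xbp1*. Promoters were taken from RefSeq (build GRCr8), which held 8 of the 10 genes; *Ern1* and *Atf6* were not among them. The window ran from 250 bases before to 50 bases after the start of transcription, and both strands were searched. The element was searched as CCAAT and CCACG with 9 bases between them. It occurred in 22 of 33469 promoters (0.0657%) and in 1 of the 8 regulators. The same element in *Hspa5*, the gene of the ER chaperone BiP and the textbook target, began 43 bases before the start. Its second form, ATTGG and CCACG with 1 base between them, occurred in 17 promoters (0.0508%), and *Herpud1* was the regulator that held it. The 250 bases before the start of *Xbp1* (chr14:84604373-84604622, plus strand) and of *Herpud1* (chr19:10614708-10614957, minus strand) are shown because these are the regulators with a complete element, which is in capitals. It began 65 bases before the start of *Xbp1* and 124 bases before that of *Herpud1*.
Xbp1: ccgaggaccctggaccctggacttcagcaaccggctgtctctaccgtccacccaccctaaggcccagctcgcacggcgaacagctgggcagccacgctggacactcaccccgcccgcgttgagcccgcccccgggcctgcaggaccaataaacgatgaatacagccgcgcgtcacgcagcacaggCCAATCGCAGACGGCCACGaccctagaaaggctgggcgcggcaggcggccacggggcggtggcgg
Herpud1: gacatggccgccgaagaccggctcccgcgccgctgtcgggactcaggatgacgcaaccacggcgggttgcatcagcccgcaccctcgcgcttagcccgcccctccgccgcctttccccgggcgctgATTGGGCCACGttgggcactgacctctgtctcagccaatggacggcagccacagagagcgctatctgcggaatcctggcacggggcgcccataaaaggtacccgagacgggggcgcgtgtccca
Hspa5, element alone: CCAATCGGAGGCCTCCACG

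The UPR element TGACGTGG (199 promoters, 0.595%) and the cAMP response element TGACGTCA (612 promoters, 1.83%) had no match in the 8 regulators, and the ATF4 composite site TGATGNAA (1332 promoters, 3.98%) had 1, on the minus strand of *Herpud1*. The windows describe letters only, and the build of the expression table was not GRCr8. Of the 2 regulators with a complete element, *Xbp1* was lower at 6 weeks and *Herpud1* did not pass the test, as given below.

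The values are scaled and rounded RSEM counts, called normalized counts here. Their total per rat lay between 13261906 and 15659533 at 6 weeks and between 13766735 and 15402814 at 10 weeks. With the age means subtracted, the leading component of what remained (28.3% of it) parted the rats into a larger set of 8 (4 of each age) and a smaller set of 5 (rats 75 and 80 at 6 weeks and rats 78, 81 and 83 at 10 weeks). No label names this division, and results that rest on it are given with and within the sets. The defining epithelial genes were abundant in every rat, with *Krt8* between 6486 and 17432 and *Krt5* between 1016 and 2416 normalized counts.

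The question of the comparison was which genes change between 6 weeks and 10 weeks, when susceptibility declines. Of the regulators, *Ern1* and *Xbp1*, which form 1 branch of the UPR, were lower within WOS, by 1.37-fold and 1.40-fold. The remaining 8, PERK and *Atf6* included, did not pass the test. Differential expression (DE) was tested with limma on log2(normalized count + 1) over all 14790 genes, and a gene was DE at a Benjamini-Hochberg adjusted p under 0.05. A log2 fold change below 0 means a lower level at 6 weeks than at 10 weeks. Thus 2 of 10 regulators (20%) were DE, where 16.1% of all genes were, so the share was near that of the whole table. Both were higher at 10 weeks (7.39% of all genes) and 0 were higher at 6 weeks (8.71% of all genes). An unadjusted p under 0.05 was reached by 4 of the 10 and by 31.6% of all genes. The median log2 fold change of the regulators was -0.16, against 0.028 over all genes.

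Among the sensors, *Ern1* (ENSRNOG00000012864) had 2626 normalized counts in the lowest rat at 6 weeks, a median of 3156.5 and 3836 in the highest. At 10 weeks the lowest rat had 3716, the median was 4259 and the highest rat had 4913. Of the 6 rats at 6 weeks, 5 lay below every rat at 10 weeks, and rat 75 alone reached into the older range. The means were 3137 ± 456 (SD, n = 6) and 4284 ± 387 (SD, n = 7), and the log2 fold change was -0.46 ± 0.11 (SE, adjusted p = 0.0162 from limma). It also passed the test within the larger set of rats (-0.50, limma adjusted p = 0.0274), where 23.5% of all genes were DE. In the smaller set, with 2 rats against 3, it was -0.34 and did not pass the test, and neither did any gene of the table (limma, where 1993 genes and 0 regulators had an unadjusted p under 0.05).

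*Eif2ak3* (ENSRNOG00000006069), the PERK gene, had its higher mean at 6 weeks, with 1019 to 1757 normalized counts at 6 weeks (median 1392.5) and 857 to 1335 at 10 weeks (median 1079). At 6 weeks 4 of 6 rats lay above every rat at 10 weeks, yet rat 75 had fewer than the 10-week median. Its log2 fold change of 0.34 ± 0.15 (SE, unadjusted p = 0.0342, limma adjusted p = 0.124) was not past the threshold. It passed only when limma gave each library a quality weight (0.49, adjusted p = 0.0127 from limma). *Atf6* (ENSRNOG00000024632) had 4546 to 5835 normalized counts at 6 weeks (median 5285) and 5175 to 6566 at 10 weeks (median 5761). The ages overlapped, with 2 of 6 younger rats below all older ones, and the log2 fold change of -0.15 ± 0.093 (SE, adjusted p = 0.278) was not past the threshold.

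**Figure D1:**
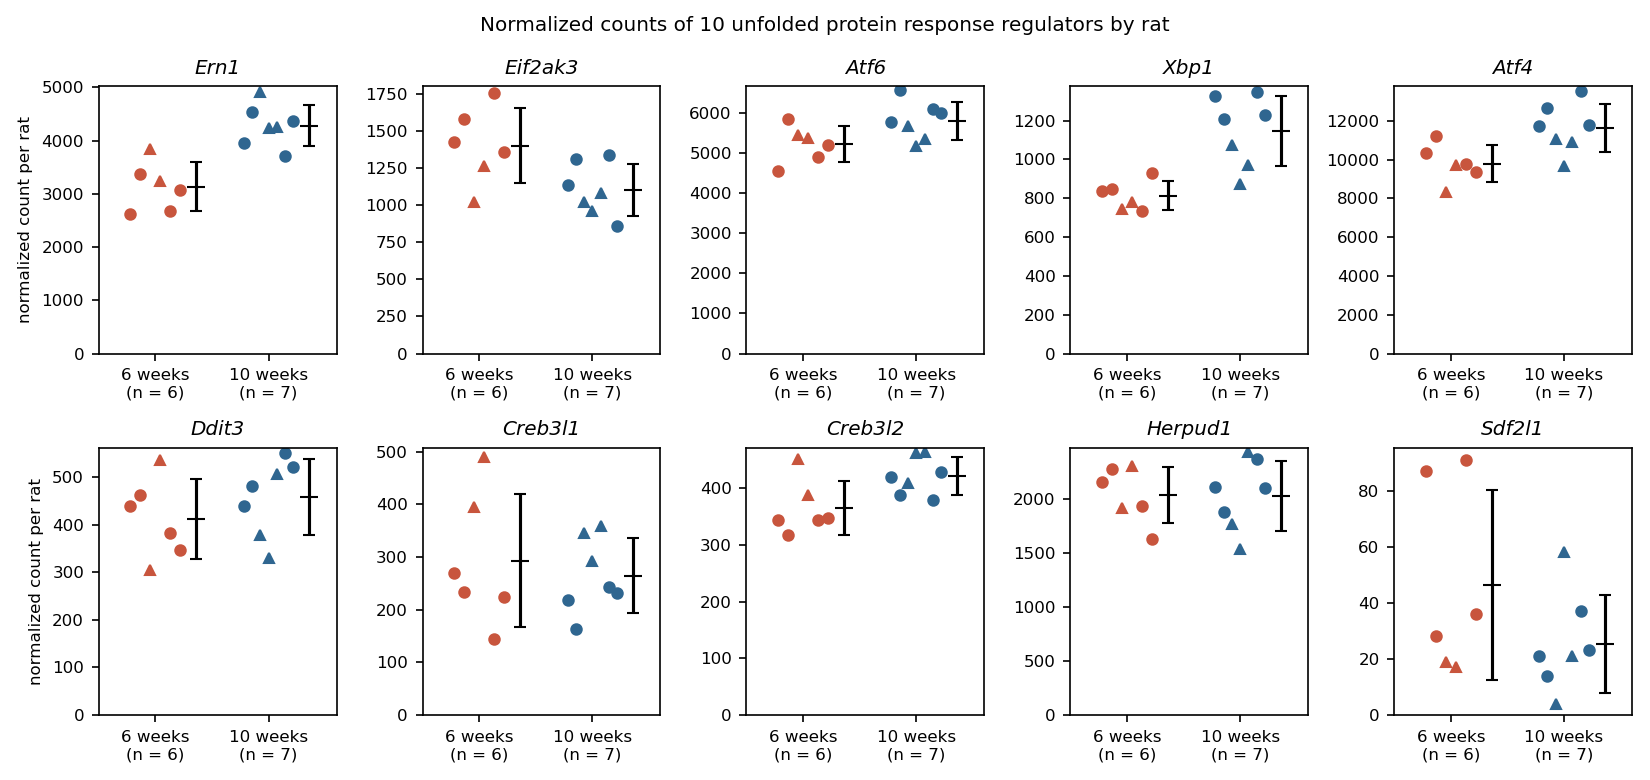
Normalized counts per rat (vertical axes, starting at 0) of the 10 regulators at 6 weeks (red, n = 6) and 10 weeks (blue, n = 7), with circles for the larger and triangles for the smaller set of rats and black bars for the mean ± SD. For *Ern1* and *Xbp1* 5 of the 6 younger rats lie below all older rats, and for *Creb3l1* the triangles lie above the circles at both ages.

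Of the transcription factors, *Xbp1* (ENSRNOG00000010298) had 733, 809 and 932 normalized counts in the lowest rat, the median and the highest rat at 6 weeks. The corresponding values at 10 weeks were 874, 1206 and 1347. Every younger rat was below the 10-week median, and 5 of 6 were below every rat at 10 weeks, while rat 86 at 6 weeks exceeded rat 81 at 10 weeks. The means were 813 ± 74.8 (SD, n = 6) and 1147 ± 179 (SD, n = 7), which gave a log2 fold change of -0.48 ± 0.12 (SE, adjusted p = 0.0184 from limma). At 10 weeks the 3 rats of the smaller set had 874, 973 and 1072, and the 4 of the larger set had at least 1206. It was -0.61 in the larger set taken alone (limma adjusted p = 0.0102), and -0.34 in the smaller set (adjusted p = 0.438). The counts are per gene, so the spliced and the unspliced form of *Xbp1* mRNA were not told apart.

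*Xbp1* and *Ern1* were DE whichever of the 13 rats was omitted, the adjusted p running from 0.00652 to 0.0463 for *Xbp1* and from 0.00955 to 0.0425 for *Ern1* (limma). No other regulator became DE in any of these fits. *Xbp1* and *Ern1* also stayed DE under each of 3 other scalings of the libraries.

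*Atf4* (ENSRNOG00000017801) had 8331 to 11208 normalized counts at 6 weeks (median 9756.5) and 9665 to 13531 at 10 weeks (median 11734). Although every younger rat was below the 10-week median, only 2 of 6 were below every older rat. The log2 fold change of -0.25 ± 0.10 (SE, unadjusted p = 0.0341, limma adjusted p = 0.124) was not past the threshold. *Ddit3* (ENSRNOG00000006789), which encodes the CHOP protein associated with cell death in prolonged ER stress, had 305 to 537 normalized counts at 6 weeks (median 411) and 331 to 550 at 10 weeks (median 482). The ages covered nearly the same range, with a log2 fold change of -0.16 ± 0.16 (SE, adjusted p = 0.529).

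*Creb3l1* (ENSRNOG00000005413), known for its part in the secretion of bone collagen, varied more between rats of one age than between the ages. It had 145 to 491 normalized counts at 6 weeks (median 252) and 163 to 359 at 10 weeks (median 244). The log2 fold change was 0.083 ± 0.27 (SE, adjusted p = 0.859 from limma), and its sign changed when rat 74, 75 or 80 was left out. The 5 rats of the smaller set had 293 to 491 and the 8 rats of the larger set 145 to 270, with no overlap. Since the sets were formed from all genes, *Creb3l1* included, this is a description. *Creb3l2* (ENSRNOG00000012826) had 317 to 451 normalized counts at 6 weeks (median 346) and 379 to 464 at 10 weeks (median 419), with 4 of 6 younger rats below all older ones. Its log2 fold change of -0.21 ± 0.10 (SE, adjusted p = 0.176) passed only with quality weights (-0.29, adjusted p = 0.0151 from limma).

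The target *Herpud1* (ENSRNOG00000018796), whose product helps bring misfolded proteins to degradation, had 1635 to 2313 normalized counts at 6 weeks (median 2047.5) and 1542 to 2437 at 10 weeks (median 2108). The means were 2040 ± 260 (SD, n = 6) and 2034 ± 324 (SD, n = 7), and the log2 fold change of 0.010 ± 0.13 (SE, adjusted p = 0.964 from limma) changed sign with the scaling of the libraries. *Sdf2l1* (ENSRNOG00000001859), which works with ER chaperones, was the least counted of the regulators, with 17 to 91 normalized counts at 6 weeks (median 32) and 4 to 58 at 10 weeks (median 21). Rats 70 and 84, with 87 and 91, held the 2 highest values. The log2 fold change of 0.85 had a standard error of 0.55 (adjusted p = 0.313) and was 0.50 without rat 78, the rat with 4. In rat 78 no gene at all took 16 of the 30 lowest whole numbers above 0, so that low values of this rat come in coarse steps. This number was 15 in rat 80, 10 in rat 75, 8 in rat 74 and 7 in rat 81. It was 4 in rats 72 and 87 and 0 in the others.

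**Figure D2:**
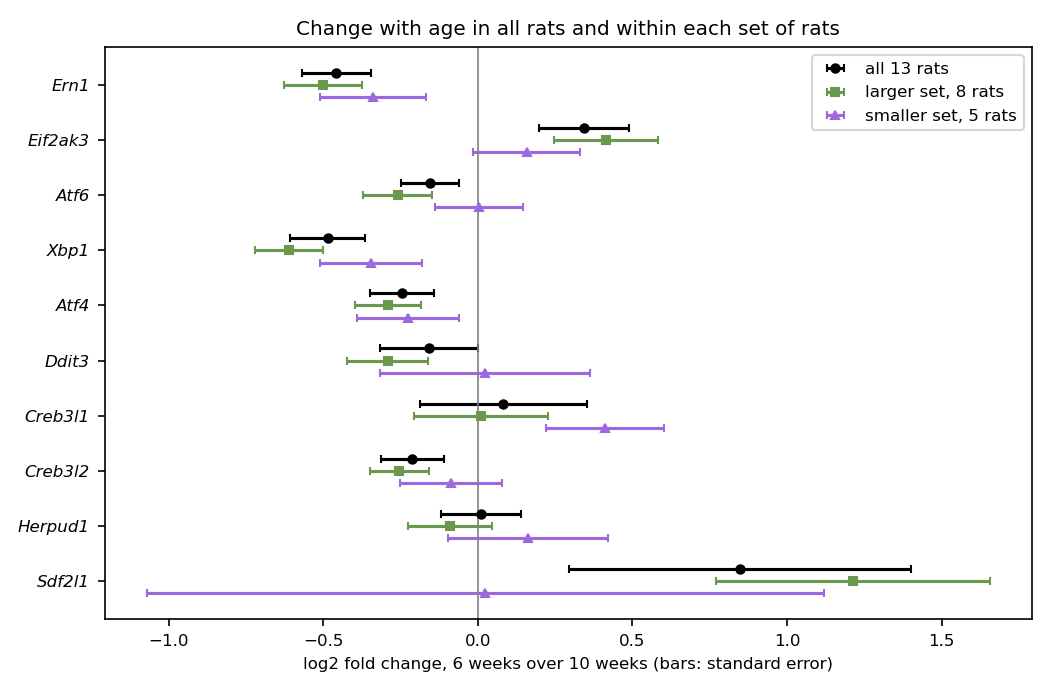
Log2 fold change of each regulator, 6 weeks over 10 weeks (horizontal axis), in all 13 rats (black circles), the larger set of 8 (green squares) and the smaller set of 5 (violet triangles), with bars of 1 standard error. *Ern1*, *Xbp1*, *Atf4* and *Creb3l2* lie below 0 in all 3, *Eif2ak3*, *Creb3l1* and *Sdf2l1* lie above 0 in all 3, and *Sdf2l1* has the widest bars.

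Whether related genes changed unequally was tested on the log2 ratio of their normalized counts in each rat, with an exact two-sided permutation test over all 1716 assignments of 6 of 13 rats and adjustment over 4 pairs. The ratio of *Xbp1* to *Ern1* was -1.94 ± 0.26 (SD, n = 6) at 6 weeks and -1.91 ± 0.31 (SD, n = 7) at 10 weeks, a difference of -0.027 (exact permutation p = 0.860). Its sign changed when rat 72, 75 or 85 was left out. The ratio of *Creb3l1* to *Creb3l2* was -0.42 ± 0.52 and -0.71 ± 0.34, a difference of 0.29 (exact permutation p = 0.249, adjusted p = 0.589). For *Ddit3* over *Atf4* the ages differed by 0.089 (exact permutation p = 0.442, adjusted p = 0.589). *Atf6* over its homologue *Atf6b* differed by -0.24 (exact permutation p = 0.415, adjusted p = 0.589), and the SD of this ratio was 0.38 at 6 weeks and 0.61 at 10 weeks. None of the 4 differences exceeded the spread between rats.

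**Figure D3:**
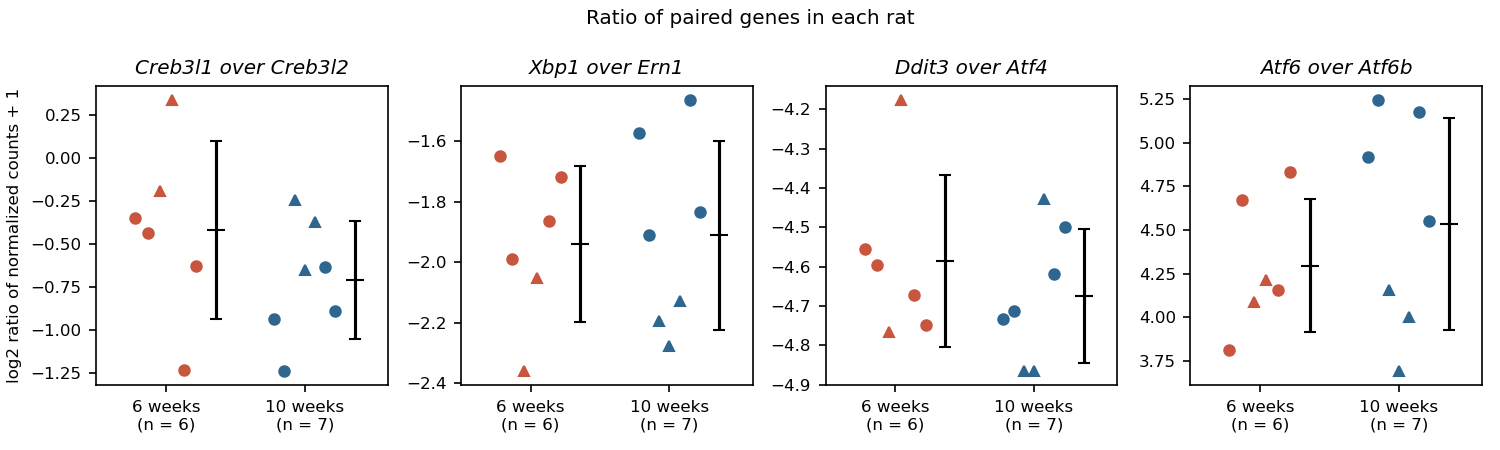
Log2 ratio of the normalized counts + 1 of paired genes in each rat (vertical axes, not starting at 0) at 6 weeks (red, n = 6) and 10 weeks (blue, n = 7), with circles for the larger and triangles for the smaller set of rats and black bars for the mean ± SD. The ages overlap in all 4 panels.

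Rats of one age also differed from each other, and some pairs of regulators varied together. With the age means subtracted, the log2 values of *Ddit3* and *Herpud1* had a Pearson r of 0.84 over 13 rats (Spearman rho 0.82), and those of *Atf4* and *Ddit3* an r of 0.76 (rho 0.66). *Atf4* also varied with *Xbp1* (r = 0.71, rho 0.71) and with *Eif2ak3* (r = 0.71, rho 0.66). The paralogs *Creb3l1* and *Creb3l2* varied together (r = 0.65, rho 0.68). In the opposite sense, *Creb3l2* varied against *Atf4* (r = -0.85, rho -0.84) and *Eif2ak3* (r = -0.80, rho -0.81), and *Ern1* against *Sdf2l1* (r = -0.80, rho -0.80). *Ern1* and *Xbp1*, both lower at 6 weeks, had an r of -0.25 among rats of the same age. The r of *Atf4* with *Xbp1* was 0.89 at 10 weeks and 0.34 at 6 weeks. Of the 45 pairs, 7 had an r over 0.5 and 7 an r under -0.5, and the median r was 0.0062. The share of all gene pairs beyond these limits was not computed, so the counts cannot be read as particular to the regulators. These correlations are descriptions over rats whose genes share a library, a scaling factor and the larger or smaller set.

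**Figure D4:**
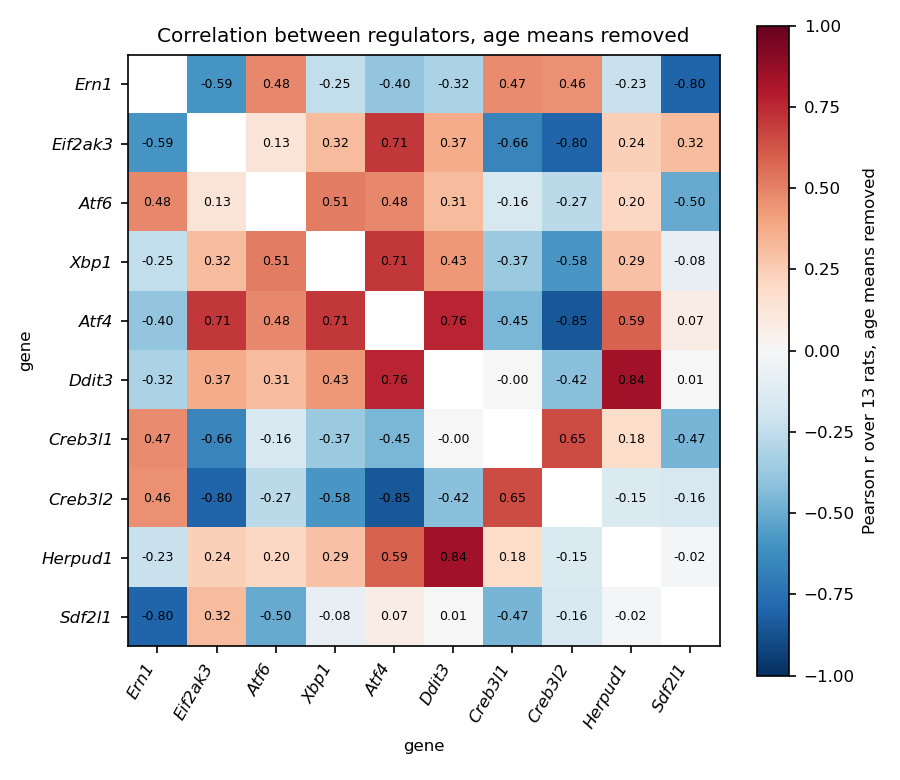
Pearson r between each pair of regulators (rows and columns) over 13 rats with the age means subtracted, from -1 (blue) to 1 (red). *Atf4*, *Ddit3* and *Herpud1* form a red group, and *Creb3l2* is blue against *Atf4* and *Eif2ak3*.

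Among 8858 genes with a mean of at least 100 normalized counts, those with the pattern most like *Ern1* across rats of one age were *Polr1a* (r = 0.94, rho 0.88), which encodes a subunit of RNA polymerase I, *Efnb2* (r = 0.93, rho 0.93), a membrane ligand of Eph receptors, and *Kif13b* (r = 0.92, rho 0.85), a kinesin motor. Their log2 fold changes were -0.48, -0.67 and -0.45. All 3 were DE and lower at 6 weeks, as 7.39% of all genes were (limma adjusted p = 0.0494 for *Kif13b*). For *Xbp1* they were *B4galt1* (r = 0.93, rho 0.94), a galactosyltransferase that also serves lactose synthesis, *Cep83* (r = 0.92, rho 0.89), a centriole gene, and the gene listed as NEWGENE_1308171 (r = 0.92, rho 0.93). None of these 3 was DE, with log2 fold changes of -0.013, -0.30 and 0.69. The 13 rats share their sets and scaling here too.

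In 5 lists of other UPR and secretory pathway genes, 121 of 130 genes were in the table. Of these, 15 (12.4%) were DE and higher at 6 weeks and 12 (9.92%) were DE and higher at 10 weeks, beside 8.71% and 7.39% of all genes. Their median log2 fold change, 0.034, was close to the 0.028 of the whole table. The counts depend on single rats. They fell to 4 and 5 without rat 70, to 6 and 6 without rat 84 and to 8 and 7 without rat 74, and the first was 9 without rat 71 and the second 7 without rat 87. Without rat 70 the share higher at 6 weeks (3.31%) was below that of all genes in the same fit (5.43%), as it was without rat 84 (4.96% against 5.80%). So, for genes higher at 6 weeks, the share of the lists above that of all genes rested on these rats. The share higher at 10 weeks was 4.13% without rat 70, against 4.11% of all genes. Without rat 84 it was 4.96%, against 4.26%. Of the 27 DE genes of these lists named below, 9 were DE whichever rat was omitted, namely *Ppib*, *Ero1b*, *Sel1l*, *Nupr1*, *Cebpg*, *Eif2ak2*, *Atf3*, *Kdelr1* and *Sec24d*, and each of the others missed the threshold without at least 1 rat. With library size scaling the second fell to 5 (4.13%, against 5.22% of all genes).

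Of 24 ER chaperones and folding enzymes, 3 (12.5%, beside 8.71% of all genes) were DE and higher at 6 weeks. They were *Ppib* (log2 fold change 0.66, adjusted p = 0.0133 from limma), a prolyl isomerase, *Pdia4* (0.62), a disulfide isomerase, and *Dnajc10* (0.40), a disulfide reductase. The call of *Dnajc10* held in 2 of the 13 fits with 1 rat omitted and was lost in the larger set (limma adjusted p = 0.0891). The 1 DE gene (4.17%, beside 7.39%) that was lower at 6 weeks was *Ero1b*, an oxidase that recharges disulfide isomerases. It was lower in 6 of 6 rats (-0.61, adjusted p = 0.0172 from limma). The median of the list was 0.14. The counts of 3 higher and 1 lower became 6 and 4 in the larger set of rats, beside 13.4% and 10.1% of all genes. With quality weights they were 10 and 5, beside 20.3% and 17.8% of all genes. The 3 became 1 without rat 70 or rat 84, beside 5.43% and 5.80% of all genes. *Hspa5* had 17318 ± 1347 normalized counts (SD, n = 6) at 6 weeks and 21257 ± 3058 (SD, n = 7) at 10 weeks, with a log2 fold change of -0.29 (adjusted p = 0.109) that was not past the threshold. It passed within the larger set of rats (-0.44, adjusted p = 0.0274 from limma), with quality weights on all rats (-0.34, adjusted p = 0.0124) and without rat 81. *Dnajb9*, a common readout of IRE1 and *Xbp1* activity, had 0.16 (adjusted p = 0.494 from limma). The chaperone gene *Hsp90b1*, named after its values were seen, had -0.41 (limma adjusted p = 0.0623) and was not past the threshold. It passed within the larger set of rats, with quality weights, with limma-trend and with the residual component as a term.

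Of 21 genes of ER-associated degradation, 2 (9.52%, beside 8.71% of all genes) were higher at 6 weeks and 1 (4.76%, beside 7.39%) was lower. *Edem2*, which trims mannose from glycoproteins bound for degradation, was higher at 6 weeks (log2 fold change 1.46, standard error 0.41, adjusted p = 0.0288 from limma), with 119 ± 42.0 against 47.0 ± 23.7 normalized counts. *Faf2* was higher as well (0.30, adjusted p = 0.0477), a call that was lost under median-ratio scaling (adjusted p = 0.0607), library size scaling (0.0521), a pseudocount of 10 (0.0549) and in the larger set (0.0826), and that held in 2 of the 13 fits with 1 rat omitted. *Sel1l*, the partner of the ubiquitin ligase HRD1, was lower in 6 of 6 rats (-0.51, standard error 0.11, adjusted p = 0.00737 from limma), with 1049 ± 74.1 against 1506 ± 195. The other 18 did not pass, and the median was 0.068.

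Of 27 targets of PERK and ATF4, 6 (22.2%) were DE and higher at 10 weeks and 2 (7.41%) were DE and higher at 6 weeks, beside 7.39% and 8.71% of all genes, with a median log2 fold change of -0.13. The 6 became 3 without rat 70, without rat 84 or with library size scaling, beside 4.11%, 4.26% and 5.22% of all genes. *Ddit4*, an inhibitor of mTORC1, had -0.87 (adjusted p = 0.0222 from limma), and *Nupr1*, a stress-induced chromatin protein, had -0.75 (adjusted p = 0.0112) with 6 of 6 younger rats below all older ones. *Cebpg*, a bZIP partner of ATF4, had -0.54 (adjusted p = 0.0137), and *Asns*, asparagine synthetase, had -0.40 (adjusted p = 0.0423). The other 2 were *Atf3* (-0.53) and *Sesn2* (-0.36), named after their values were seen. Those higher at 6 weeks make serine and phosphoenolpyruvate, namely *Psph* (0.56, adjusted p = 0.0214) and *Pck2* (1.05, adjusted p = 0.0267). *Trib3* had -0.13 (adjusted p = 0.593). *Asns*, *Atf3* and *Sesn2* were no longer DE with library size scaling (adjusted p of 0.0770, 0.0586 and 0.108 from limma). In the larger set of rats *Atf3* and *Sesn2* were not DE either (limma adjusted p of 0.0805 and 0.0526). With quality weights *Atf3* was also lost (limma adjusted p = 0.0572).

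Of 18 related sensors, kinases and proteases, 3 (16.7%, beside 8.71% of all genes) were higher at 6 weeks, namely *Eif2ak2* (log2 fold change 0.59, adjusted p = 0.0200 from limma), the PKR kinase of the antiviral response, *Tmbim6* (0.49), an ER membrane protein that restrains IRE1, and *Mbtps1* (0.34), the protease that makes the first cut in ATF6. *Map3k5*, the ASK1 kinase downstream of IRE1, was the 1 DE gene (5.56%, beside 7.39%) that was lower (-0.33, limma adjusted p = 0.0338). Its call was lost under library size scaling (-0.28, limma adjusted p = 0.0956) and held in 5 of the 13 fits with 1 rat omitted. Those of *Tmbim6* and *Mbtps1* held in 4 and 7 of these fits. The median of the list was -0.058, with 12 of the 18 genes below 0. Among 31 translocon and transport genes, 5 (16.1%, beside 8.71% of all genes) were higher at 6 weeks and 3 (9.68%, beside 7.39%) were lower, with a median of 0.14. These counts were 7 and 0 under library size scaling, beside 8.77% and 5.22% of all genes. In the larger set of rats they were 10 and 2, beside 13.4% and 10.1% of all genes. *Ssr4* (0.98) and *Ssr2* (0.71) encode parts of the translocon, and *Kdelr3* (0.75) a receptor that returns chaperones to the ER. *Kdelr1* and the COPII coat gene *Sec24d*, named after their values were seen, were higher in 6 of 6 younger rats than in all older rats. The coat genes *Sec24b* (-0.37) and *Sec24c* (-0.31) and the translocon gene *Sec63* (-0.37) were lower, but under library size scaling none of these 3 was DE.

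**Figure D5:**
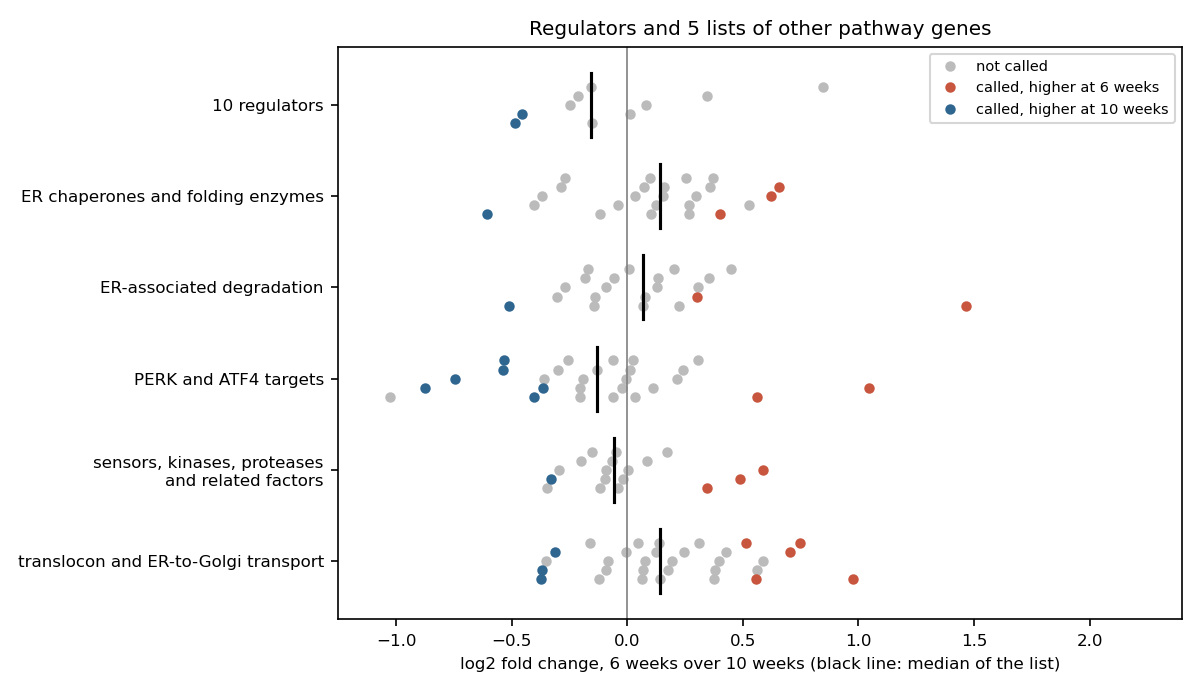
Log2 fold changes (6 weeks over 10 weeks, horizontal axis) of the 10 regulators and of the genes in 5 lists, 1 point per gene, with genes that were not DE in grey and DE genes in red (higher at 6 weeks) or blue (higher at 10 weeks) and a black line at the median of each list. The list of PERK and ATF4 targets has 6 blue points, and *Edem2* is the red point farthest to the right.

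Markers of other cell types moved with age as well, and in these bulk samples fewer cells of a type and less RNA per cell cannot be told apart. The mean log2(normalized count + 1) of 9 fibroblast markers ran from 11.84 to 12.85 at 6 weeks and from 10.10 to 11.49 at 10 weeks, and 6 of the 9 were DE and higher at 6 weeks. That of 7 mast cell markers ran from 5.85 to 6.96 and from 2.24 to 5.06 (7 of 7 DE), that of 7 adipocyte markers from 6.40 to 7.30 and from 5.45 to 6.20 (3 of 7 DE), and that of 11 cell division genes from 6.99 to 8.21 and from 3.78 to 6.35 (10 of 11 DE). The 3 DE adipocyte markers had at most 159 normalized counts in any rat. *Fabp4*, with at least 1333 in every rat, had a log2 fold change of -0.090. *Plin4* was also below 0 (-0.13), and the other adipocyte markers were above 0. For these 4 lists no rat of one age overlapped the other, so that their part in the lower *Ern1* and *Xbp1* cannot be told apart from age. The luminal list overlapped, from 10.79 to 11.50 and from 11.15 to 11.56, with 2 of 10 genes DE and higher at 10 weeks (*Epcam*, -0.39, and *Kit*, -0.71), although *Epcam* was DE in 0 and *Kit* in 4 of the 13 fits with 1 rat omitted. The basal list ran from 10.26 to 10.91 and from 10.54 to 11.22 (1 of 10 DE). The ages also overlapped for macrophage, endothelial and milk protein genes, of which limma found 0 of 9, 0 of 7 and 0 of 10 DE, with 1, 1 and 0 at an unadjusted p under 0.05. *Jchain*, a marker of plasma cells, which are known for high *Xbp1*, had at most 21 normalized counts in any rat and 0 in 2 rats. Its log2 fold change was -0.96 (limma adjusted p = 0.415). The 7 plasma and B cell markers ran from 3.21 to 5.95 and from 3.14 to 6.17. Of the 2 that were DE, *Cd79b* was higher at 6 weeks and *Sdc1*, which epithelium also expresses, at 10 weeks. *Irf4* had 132 to 250 normalized counts at 6 weeks and 76 to 176 at 10 weeks (0.71, limma adjusted p = 0.0517). The log2 fold changes in this list had their median at -0.41, with *Cd79b* and *Irf4* above 0 and the others below. Whether plasma cells had a part in the lower *Xbp1* was not tested.

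Over all genes the count of DE genes rested on the rats used, with 1411 without rat 70, 1488 without rat 84 and 1558 without rat 87, against 2381 in all. In the larger set of rats 23.5% of the genes were DE, and *Ern1* and *Xbp1* were the regulators among them. No regulator had its ages fully apart, which 6.07% of all genes did.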

How the data were processed

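RNA-seq of mammary epithelial cells from 13 rats was used. The values per rat are a score, namely the authors' deposited RSEM 1.2.22 counts per gene after each library was multiplied by its own factor and rounded. The submitters' processing notes name rn5 as the build, along with edgeR and DESeq2. The deposited fold changes, abundances, p-values and locations of the authors were not used. Age was read from the sample titles. Each library is 1 rat, so p-values measure the spread between animals.

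Genes with a mean of at least 1 were tested with limma 3.58.1 in R 4.3.3 on log2(value + 1), with no covariate and two-sided p-values adjusted after Benjamini-Hochberg over 14790 genes. The scale understates changes of low values. Read numbers are not given by scaled values, so no counting intervals are given. Permutation tests, correlations and motif searches used scipy 1.17.1, numpy 2.4.6 and pandas 2.3.3 under Python 3.11.15. The limma and permutation tests were tested on simulated data first.

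The regulators and lists were chosen with earlier results of these data known. Named besides the regulators were, per list and direction, the 3 DE genes that changed most, *Hspa5*, *Asns*, *Dnajb9* and *Trib3*, and the 3 genes most correlated with each DE regulator. Of each marker list, counts, ranges and a few genes are given. The values of 1 marker gene are not reported here. Alternatives were 3 scalings, pseudocounts of 0.1 and 10, filters, limma-trend, quality weights, the residual component or its sets, and each rat left out.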

Additional observations from a re-analysis of the deposited data

Results flagged for a closer look

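Among 86 groups of rats (the regulators and the other named genes at each age), 5 held a rat whose gap to the next exceeded Dixon's 95% limit, and chance gives this in about 1 of 20 groups. No group of a regulator was among them. At 6 weeks *Ero1b* had 86 normalized counts in rat 80, against 118 to 133 in the others, *Trib3* had 603 in rat 70, against 353 to 437, and *Sec24d* had 880 in rat 75, against 996 to 1062. At 10 weeks *Nupr1* had 2402 in rat 78, against 1191 to 1460, and *Ssr4* had 372 in rat 81, against 143 to 240. *Nupr1* stayed DE in all 13 fits that left out 1 rat, and *Ssr4* in 12 of them.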

How the results depend on the processing

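Of 249 refits of single regulators, 230 kept their direction and their side of the threshold. This count includes refits that had no room to differ. Dropping the minimum mean added no gene, so those refits repeat the main fit. With limma-trend or the residual component as a term, each regulator had the log2 fold change of the main fit. Those refits could change only the side of the threshold, not the direction. *Ern1* and *Xbp1* were no longer DE in 1 refit each, the smaller set of rats. *Herpud1* turned to -0.010 under median-ratio scaling, -0.0085 with quality weights and -0.090 in the larger set, and spanned -0.053 to 0.072 with single rats omitted. *Creb3l1* turned to -0.021 with quality weights, and spanned -0.088 to 0.26 with single rats omitted. In the smaller set *Atf6* turned to 0.0052 and *Ddit3* to 0.022. The ratio of *Xbp1* to *Ern1* spanned -0.088 to 0.057 likewise.

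Quality weights gave 5647 DE genes, with 3009 (20.3% of all genes) higher at 6 weeks and 2638 (17.8%) higher at 10 weeks. Beside these shares, 4 of the 10 regulators were DE, 3 of them higher at 10 weeks. Of the 5 lists, 33 genes (27.3%) were DE and higher at 6 weeks and 24 (19.8%) at 10 weeks. The residual component as a term gave 1651 genes higher at 10 weeks. The larger set gave 1987 genes higher at 6 weeks (13.4% of all genes), and 24 of the lists (19.8%). In the smaller set 0 genes were DE, with 0 regulators and 0 genes of the lists in either direction, by limma on 2 against 3 rats, where 1993 genes had an unadjusted p under 0.05. Library size scaling left 5 genes of the lists higher at 10 weeks (4.13%, against 5.22% of all genes). Leaving out each rat gave 1411 to 2680 DE genes, 803 to 1461 higher at 6 weeks and 608 to 1219 higher at 10 weeks (the last 696 without rat 72 and 694 without rat 74), and 4 to 18 and 5 to 15 genes of the lists. Library size scaling moved the median of all genes most, to 0.074. The cause of these shifts was not tested. *Sdf2l1* could not be fitted with at least 10 in every rat. No paired analysis was possible because no rat number occurs at both ages.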
